A study of Homo sapiens with 2 samples.

Results

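The 10 genes described here encode proteins that find broken or stalled DNA and pass the signal on, and their transcripts were measured in RKO cells, an established cell line from a human colon carcinoma. They are RAD50, MRE11A, NBN, ATM, ATR, ATRIP, CHEK1, CHEK2, MDC1 and TP53BP1. They were picked by name, and all 10 of them had a row among the 40205 rows of the expression table. The cells had received an siRNA against SRSF1 or a control siRNA and were harvested 48 h later for RNA sequencing. SRSF1, also called ASF, is a splicing factor of the SR family. Each group had 1 library, so no difference below has a replicate check and no p-value is given. The sequence of the siRNAs is not in the labels, so direct silencing of another transcript by the siRNA and an effect of SRSF1 loss cannot be told apart.

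Breaks in both DNA strands are bound by the MRN complex, in which MRE11A (now MRE11) is the nuclease, RAD50 the ATPase with long coiled-coil arms that bridges DNA ends, and NBN the adaptor that draws in the kinase ATM. Single-stranded DNA coated by RPA, as at stalled forks, recruits a different kinase, ATR, through its partner ATRIP. ATM signals largely through the kinase CHEK2 and ATR through CHEK1, while MDC1 and TP53BP1 assemble on the chromatin around a break. SRSF1 binds purine-rich RNA, and GA-rich hexamers such as GAAGAA and GGAGGA are typical of its sites.

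Values are FPKM, fragments counted per kilobase of gene model and scaled to library size, so levels of different genes can be compared per length. Differences are those of log2(FPKM + 1), the SRSF1 siRNA library minus the control library. A gene is said to have risen or fallen where this difference reached 1.5-fold, and rows whose FPKM averaged 1 or more count as expressed. Fragment counts could be worked back from the FPKM values, as the smallest whole numbers that fit, and they give a 95% counting interval for each ratio of FPKM. These intervals cover counting error only, not the spread between cultures.

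The SRSF1 siRNA library held 61879680 reads with 75.9% mapped, and the control library 64651910 reads with 70.4% mapped. SRSF1 itself was at 32.7 FPKM in the SRSF1 siRNA library and at 103 FPKM in the control library, a ratio of 0.317 (0.306 to 0.328). Among 11274 expressed rows, 485 fell (4.3%) and 138 rose (1.22%). The split was 355 and 197 (3.15% and 1.75%) with the median difference set to 0. It was 324 and 217 of 11275 rows (2.87% and 1.92%) after quantile normalization. Removal of a trend on transcript length gave 269 and 189 of 10762 rows (2.50% and 1.76%). With a pseudocount of 0.1 the split was 806 and 237 (7.15% and 2.10%). The recovered counts with no pseudocount gave 860 and 256 of 11268 rows (7.63% and 2.27%). After both columns were rescaled to 1 sum it was 802 and 259 of 12500 rows (6.42% and 2.07%). The median difference was -0.06, with 5% of rows below -0.55 and 5% above 0.35. Of 7 epithelial markers, EPCAM, KRT8 and KRT18 were expressed, whereas KRT19 and CDH1 were listed at 0. CDX2 (4.90 FPKM with SRSF1 siRNA and 5.63 FPKM with control siRNA) was the only expressed marker of 6 for intestine. None of 6 leukocyte, 6 fibroblast, 4 endothelial and 3 red cell markers was expressed, and the summed FPKM of each of these lists was at most 0.115 with SRSF1 siRNA and 0.0750 with control siRNA.

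The sequences shown here are those of the members whose values the account turns on. RAD50 had the lowest difference, CHEK2 the highest, and MRE11A is the direct partner of RAD50. The reference promoters, 250 bases before to 50 bases after the transcript start, come from RefSeq on GRCh38.p14 and lie at chr5:132556727-132557026 (plus strand) for RAD50, at chr11:94493795-94494094 (minus strand) for MRE11A and at chr22:28741771-28742070 (minus strand) for CHEK2. Capitals mark matches on either strand to any of these motifs: the CCAAT box; the GC box, spelled GGGCGG; the E2F site, spelled TTTCGCGC and in its other form TTTGGCGC; the ETS core, spelled CCGGAAG; the TATA box, spelled TATAAA; the E box, spelled CACGTG; and the cyclic AMP response element, spelled TGACGTCA.
RAD50 promoter: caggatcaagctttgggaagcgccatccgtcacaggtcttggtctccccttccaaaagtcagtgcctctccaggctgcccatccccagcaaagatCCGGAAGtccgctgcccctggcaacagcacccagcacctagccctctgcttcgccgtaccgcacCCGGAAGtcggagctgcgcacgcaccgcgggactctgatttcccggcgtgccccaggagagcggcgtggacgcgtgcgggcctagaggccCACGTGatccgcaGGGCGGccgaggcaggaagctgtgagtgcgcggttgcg
MRE11A promoter: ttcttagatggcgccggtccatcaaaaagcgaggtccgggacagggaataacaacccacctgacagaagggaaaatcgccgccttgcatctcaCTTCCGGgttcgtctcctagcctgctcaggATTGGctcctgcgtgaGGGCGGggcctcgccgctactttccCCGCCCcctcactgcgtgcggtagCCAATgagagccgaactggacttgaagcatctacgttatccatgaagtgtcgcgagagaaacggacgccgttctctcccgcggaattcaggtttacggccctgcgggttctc
CHEK2 promoter: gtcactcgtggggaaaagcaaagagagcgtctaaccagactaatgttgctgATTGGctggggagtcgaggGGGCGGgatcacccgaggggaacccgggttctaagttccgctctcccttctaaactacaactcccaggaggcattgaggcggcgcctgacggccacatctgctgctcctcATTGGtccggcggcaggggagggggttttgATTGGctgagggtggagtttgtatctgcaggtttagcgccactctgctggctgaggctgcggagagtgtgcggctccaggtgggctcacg

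RefSeq promoters were matched for 9 of the 10 genes, 13 promoters in all. The RAD50 promoter holds a pair of ETS cores, beginning 155 and 91 bases before the start, with an E box beginning 1 base before it and a GC box 13 bases into the transcript. It was the only promoter of these genes with CACGTG, which 7.26% of all 35116 promoters hold. MRE11A has an ETS core as well, with CCAAT and GC boxes, and CHEK2 has 3 CCAAT boxes and 1 GC box. Counting a gene when any of its promoters matched, CCAAT was found in 7 of the 9 genes, all but RAD50 and ATR, against 34.6% of all promoters. The GC box was found in 8 genes (45.0% of all promoters) and the ETS core in 5 (10.3%), while E2F (1.15%), TATAAA (11.5%) and TGACGTCA (1.85%) matched none. Over the promoters of expressed mRNAs alone, as all 9 genes are, the shares were 35.1% for CCAAT, 68.2% for the GC box, 18.9% for the ETS core, 1.95% for E2F, 5.43% for TATAAA, 9.81% for CACGTG and 2.94% for TGACGTCA. Those promoters were matched by the symbols of the expression rows, so renamed genes such as MRE11A could drop out. All of these are shares of promoters, whereas CHEK1 with 3 promoters, and ATM and ATRIP with 2 each, had more chances to match. A match describes letters only and is no evidence of binding.

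A second set of sequences shows where the coding sequence of the 2 lowest members is richest in the GA hexamers of SRSF1. Each is the 90-base stretch within 1 coding exon that has the most bases in GAAGAA or GGAGGA, read on the sense strand of GENCODE 29 transcripts on GRCh38, with the hexamers in capitals. For RAD50 it lies in exon 14 of 25 at chr5:132603352-132603441 (plus strand), and for ATRIP in exon 3 of 13 at chr3:48451729-48451818 (plus strand).
RAD50 exon 14: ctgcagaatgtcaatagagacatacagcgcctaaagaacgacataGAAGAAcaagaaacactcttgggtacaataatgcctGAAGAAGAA
ATRIP exon 3: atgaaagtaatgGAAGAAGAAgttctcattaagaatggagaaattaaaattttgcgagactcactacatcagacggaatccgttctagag

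The RAD50 stretch holds 3 matches over 15 bases and the ATRIP stretch 2 matches over 9 bases, so some overlap. Cut end to end into stretches of this length, the coding sequences of expressed mRNAs held a match in 17.3% of stretches and 3 or more in 0.806%. The stretches shown were picked as the richest of their genes, so they are no sample to set against these shares. Over its 3936 coding bases RAD50 had 2.80 GAAGAA per kilobase, more than 84.7% of expressed mRNAs, whose median was 1.05. MDC1 had 2.71, NBN 2.65, TP53BP1 2.36 and MRE11A 2.34 per kilobase. ATRIP had 0.843 and CHEK2 0.569 per kilobase. For the other hexamer, GGAGGA, RAD50 had 0.254 per kilobase, more than 32.8% of expressed mRNAs, whose median was 0.786. ATRIP had 0.421 GGAGGA per kilobase, more than 36.2%. NBN had 1.77, MRE11A 1.41, TP53BP1 1.35 and MDC1 1.28 GGAGGA per kilobase, and CHEK2 had none. With expressed mRNAs split into 4 groups of about equal size by GAAGAA per kilobase, 4.41% fell in the group with the least, and 2.73%, 2.97% and 2.77% in the next groups up to the one with the most. These groups were not matched for transcript length. The median difference was -0.16 in the tenth of mRNA rows with the shortest transcripts and 0.03 in the tenth with the longest. Whether the hexamers bear on any of these levels was not tested. The FPKM values are sums over a gene and say nothing of which exons were used.

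In the MRN complex, only the ATPase subunit fell. RAD50 was at 12.9 FPKM in the SRSF1 siRNA library and at 25.5 FPKM in the control library, from 2037 and 3890 fragments. That is a ratio of 0.508 (0.481 to 0.536) and a log2(FPKM + 1) difference of -0.93, the 80th lowest of all expressed rows. The nuclease MRE11A was at 8.90 FPKM with SRSF1 siRNA and 9.14 FPKM with control siRNA, and the ratio of 0.974 has an interval that holds 1 (0.820 to 1.16). The smallest counts of MRE11A, on 1291 bases, may also stand for a multiple, and at 5 times these counts the interval is 0.903 to 1.05. The adaptor NBN, the most abundant of the 10 genes in both libraries, was at 76.2 FPKM with SRSF1 siRNA and 72.1 FPKM with control siRNA, a ratio of 1.06 (1.02 to 1.09). The balance of RAD50 to its partners differed between the libraries. RAD50 stood at 1.45 times the level of MRE11A with SRSF1 siRNA and at 2.79 times with control siRNA, a change of this ratio to 0.522 of its control value (0.438 to 0.622 on the smallest counts). Relative to NBN it stood at 0.170 with SRSF1 siRNA and 0.354 with control siRNA, a change to 0.481 of its control value (0.452 to 0.511). The ratio of MRE11A to NBN was 0.117 with SRSF1 siRNA and 0.127 with control siRNA, and the interval of this change holds 1 (0.777 to 1.09). In a bulk library, fewer cells with the transcript and less of it per cell cannot be told apart.

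**Figure D1:**
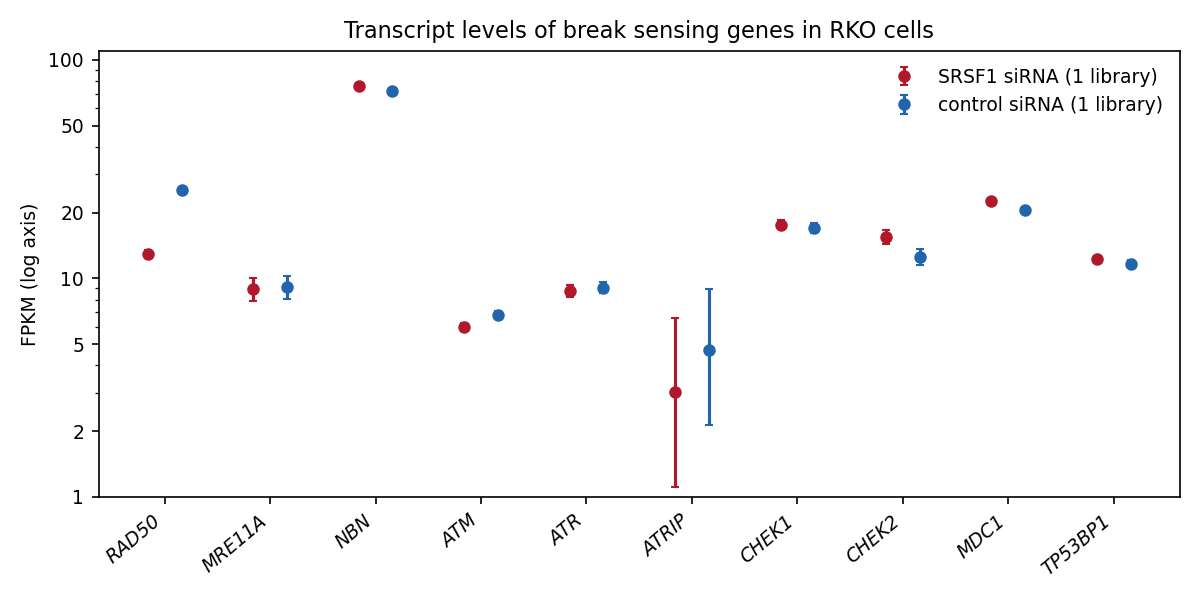
Transcript level in FPKM (log axis) of the 10 genes in the SRSF1 siRNA library (red) and the control siRNA library (blue), with 1 library per group. Bars are exact Poisson 95% counting intervals on the smallest counts that fit. They are too wide where the true counts are a multiple, above all for ATRIP, drawn from 6 and 9 fragments. RAD50 is at 12.9 FPKM with SRSF1 siRNA and 25.5 FPKM with control siRNA, while the paired points of MRE11A, NBN, ATR and CHEK1 are nearly level.

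Among 3614 other mRNA rows with a mean FPKM within 2-fold of that of RAD50, 7 (0.194%) had a difference as low or lower. RAD50 was singled out as the lowest of the 10 genes, so this share describes its place and is not a probability. The mRNA rows most like RAD50 over the 2 libraries, by the distance between log2 differences among rows of like level, were PSMB10, TSTD1 and CBY1. PSMB10, a subunit of the immunoproteasome, was at 6.46 FPKM with SRSF1 siRNA and 13.3 FPKM with control siRNA. TSTD1 was at 9.90 FPKM with SRSF1 siRNA and 19.3 FPKM with control siRNA, and CBY1, a ciliary protein that also binds beta-catenin, at 11.4 FPKM with SRSF1 siRNA and 22.0 FPKM with control siRNA. RAD50 has a long transcript, 8306 bases in GENCODE. In the tenth of mRNA rows with the longest transcripts the median difference was 0.03, and RAD50 differed from that median by -0.96.

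The apical kinases differed little. ATM was at 6.004 FPKM with SRSF1 siRNA and 6.791 FPKM with control siRNA, a ratio of 0.884 (0.830 to 0.941) whose interval lies below 1 but which is well short of 1.5-fold. ATR was at 8.76 FPKM with SRSF1 siRNA and 9.08 FPKM with control siRNA, and its ratio of 0.965 (0.888 to 1.05) has an interval that holds 1, as it does at 2 times the smallest counts (0.910 to 1.02). ATM stood at 0.685 times the level of ATR with SRSF1 siRNA and at 0.748 times with control siRNA, and the interval of the change in this ratio holds 1 (0.826 to 1.02). ATRIP, which brings ATR to RPA, was the least abundant member in both libraries, at 3.03 FPKM with SRSF1 siRNA and 4.69 FPKM with control siRNA. Its difference of -0.50 lies just short of 1.5-fold on the log2(FPKM + 1) scale, although the plain ratio is 0.647. The smallest counts that fit these values are 6 and 9 fragments on a length of 83 bases, which gives an interval of 0.189 to 2.03. That length is too short for the gene, and the counts may be any whole multiple of these. At the multiple nearest the longest coding transcript in GENCODE, 4580 bases, the counts are 330 and 495 and the interval is 0.561 to 0.745. The interval lies below 1 for any multiple from 7 upward, a length of 581 bases. ATRIP stood at 0.346 times the level of ATR with SRSF1 siRNA and at 0.516 times with control siRNA, and on the smallest counts the interval of this change holds 1 (0.238 to 1.89). Those counts stand for a length too short for the gene, and larger multiples would give a narrower interval, which was not worked out. The interval given thus does not settle whether the change exceeds counting error.

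The effector kinases and the chromatin adaptors had ratios between 1.03 and 1.24. CHEK1 was at 17.58 FPKM with SRSF1 siRNA and 17.02 FPKM with control siRNA, a ratio of 1.03 (0.965 to 1.11). CHEK2 had the highest difference of the 10 genes, 0.29, at 15.5 FPKM with SRSF1 siRNA and 12.5 FPKM with control siRNA. Its ratio of 1.24 (1.11 to 1.38) exceeds counting error, and 92.1% of expressed rows had a lower difference, but it did not reach 1.5-fold. CHEK1 stood at 1.13 times the level of CHEK2 with SRSF1 siRNA and at 1.36 times with control siRNA, and this ratio was at 0.833 of its control value (0.733 to 0.947). MDC1, which binds phosphorylated histone H2AX, was at 22.5 FPKM with SRSF1 siRNA and 20.6 FPKM with control siRNA, a ratio of 1.09 (1.05 to 1.15). TP53BP1, which favours end joining over resection, was at 12.2 FPKM with SRSF1 siRNA and 11.7 FPKM with control siRNA, a ratio of 1.05 (0.992 to 1.10).

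**Figure D2:**
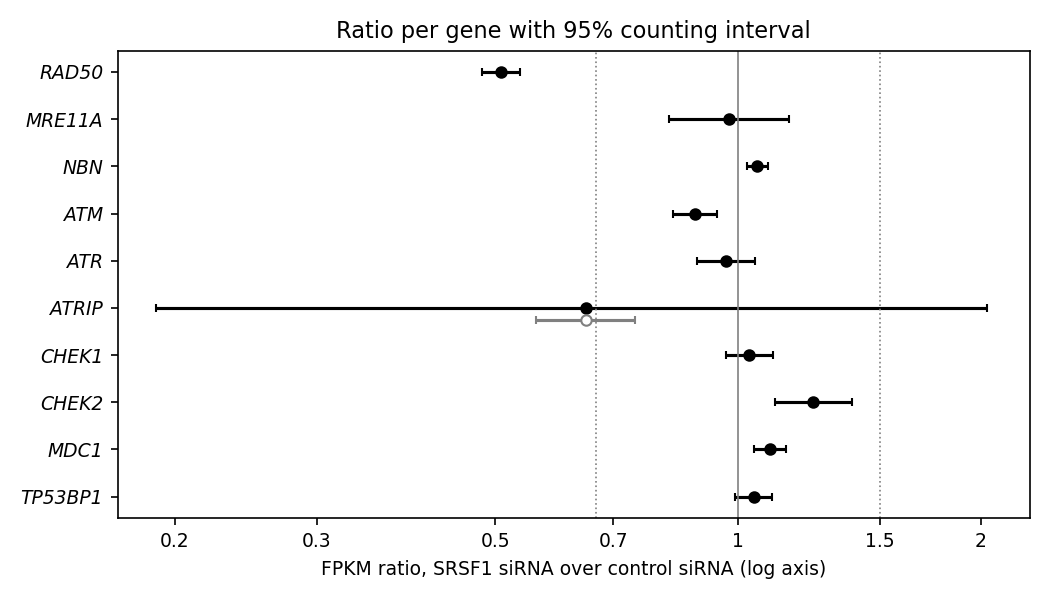
Ratio of FPKM, SRSF1 siRNA over control siRNA (log axis), for each of the 10 genes with its 95% counting interval on the smallest counts. The dotted lines mark 1.5-fold, and the grey open point repeats ATRIP with counts at the annotated transcript length. RAD50 at 0.508 is far from 1, and the other ratios except that of ATRIP lie between 0.884 and 1.24.

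Of the 10 genes, all expressed, 1 was at least 1.5-fold lower (4.3% of expressed rows were) and none was at least 1.5-fold higher (1.22%). With a pseudocount of 0.1, 2 were lower, RAD50 and ATRIP, against 7.15% of expressed rows, and from the recovered counts with no pseudocount the same 2 were lower, against 7.63%. None reached 2-fold, which 0.435% of expressed rows did downward and 0.284% upward. Their median difference was 0.00, and 0.04 without RAD50, against -0.06 over all expressed rows. With the trend on transcript length removed both medians were 0.00. The values were lower in 5 genes and higher in 5. On the smallest counts, the counting interval lay below 1 for 2 genes (34.5% of expressed rows) and above 1 for 3 (19.5%). ATRIP would be the third gene below 1 at its annotated length. A single gene of 10 is too few to set the group's share apart from that of expressed rows. Summed over the 10 genes, the level was 184 FPKM with SRSF1 siRNA and 189 FPKM with control siRNA. Without NBN, the most abundant member, the sum was 107 FPKM with SRSF1 siRNA and 117 FPKM with control siRNA.

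The order of levels was the same in both libraries but for RAD50. With SRSF1 siRNA it ran NBN, MDC1, CHEK1, CHEK2, RAD50, TP53BP1, MRE11A, ATR, ATM and ATRIP, a 25.1-fold range. With control siRNA RAD50 stood second, between NBN and MDC1, and the range was 15.4-fold. Neighbours whose counting intervals overlapped were RAD50 and TP53BP1 with SRSF1 siRNA, and CHEK2 and TP53BP1 with control siRNA. MRE11A and ATR overlapped in both libraries, as did ATM and ATRIP, all on the smallest counts. The overlap of ATM and ATRIP rests on 6 and 9 fragments of ATRIP, on a length too short for the gene. It was not read at larger multiples.

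**Figure D3:**
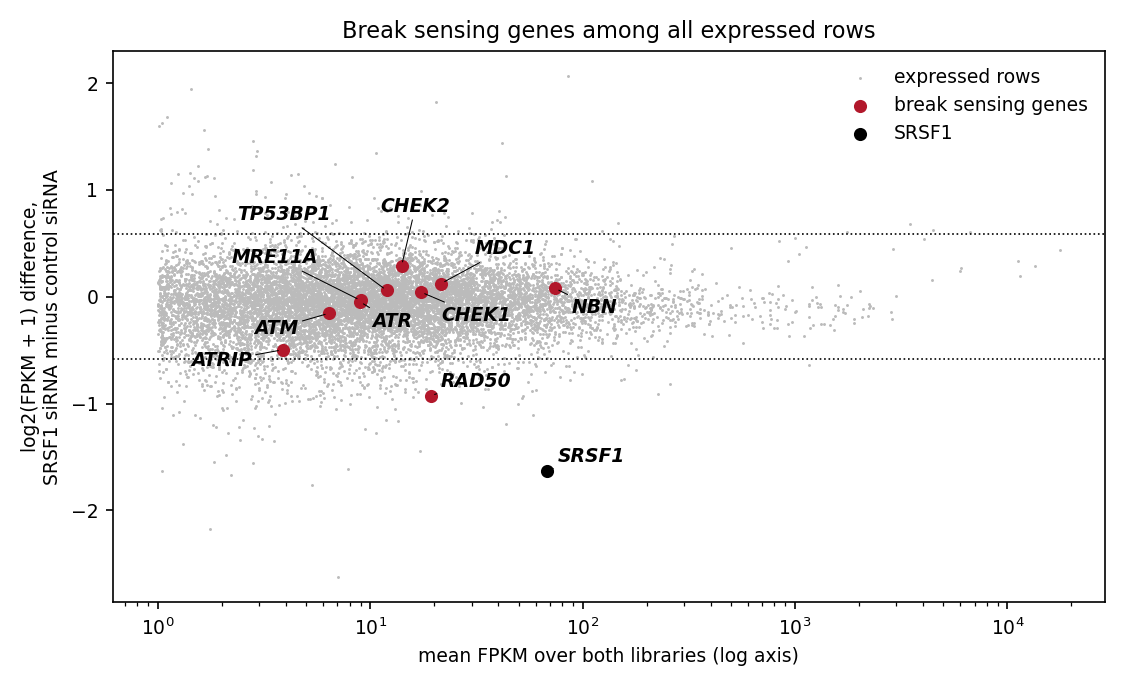
Log2(FPKM + 1) with SRSF1 siRNA minus that with control siRNA, against the mean FPKM of both libraries (log axis) for the 11274 expressed rows (grey), the 10 break sensing genes (red) and SRSF1 (black). The dotted lines mark 1.5-fold. RAD50 at -0.93 lies at the lower edge of rows of its level, whereas the other members lie within the main body of points.

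Other steps of the damage response were described with 8 lists of 84 genes, all of which were expressed. Of these 84, 2 fell (2.38%, against 4.3% of all expressed rows), 1 rose (1.19%, against 1.22%) and the median difference was -0.03, against -0.06. The counts in single lists below are thus no result about those lists. In the list of the chromatin response around breaks, 1 of 16 genes fell and none rose (median -0.08). That gene was FAM175A, the scaffold called Abraxas of the BRCA1-A complex, which holds BRCA1 at ubiquitylated chromatin. It was at 3.62 FPKM with SRSF1 siRNA and 8.12 FPKM with control siRNA, a ratio of 0.446 (0.381 to 0.520). The other subunits of that complex, set out after their values were seen, did not reach 1.5-fold. BABAM1 was at 0.746 times its control level, the ubiquitin reader UIMC1 at 0.823, the deubiquitylase BRCC3 at 0.857 and BRE at 1.00. FAM35A, a shieldin subunit that acts with TP53BP1 and RIF1, was at 23.6 FPKM with SRSF1 siRNA and 16.2 FPKM with control siRNA (1.46 times), and RIF1 was at 1.33 times. Their differences of 0.52 and 0.40 also stayed short of 1.5-fold.

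In non-homologous end joining, 1 of 10 genes fell and none rose (median -0.08). XRCC4, the scaffold of DNA ligase IV, was at 9.23 FPKM with SRSF1 siRNA and 15.2 FPKM with control siRNA, a ratio of 0.608 (0.533 to 0.693) and a difference of -0.66. After removal of the trend on transcript length its difference was -0.52, short of 1.5-fold. Its catalytic partner LIG4 was at 1.12 times, the XRCC4-like factor NHEJ1 at 1.12 times and C9orf142, called PAXX, at 0.753 times. In the SMC family, to which RAD50 is related in structure, 1 of 6 genes rose and none fell (median -0.07). SMC5 was at 35.6 FPKM with SRSF1 siRNA and 23.2 FPKM with control siRNA, a ratio of 1.53 (1.46 to 1.60), while its partner SMC6 was at 0.923 times. The cohesin subunit SMC1A was at 0.849 times and the condensin subunit SMC2 at 0.814 times.

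In the remaining lists no gene reached 1.5-fold in either direction. Of 13 genes of ATR activation (median -0.18), RPA3 and RPA2, subunits of the single-strand binding complex RPA, were at 0.696 and 0.721 times. The clamp subunit HUS1 was at 0.765 times, and another clamp subunit, RAD9A, was at 1.995 FPKM with SRSF1 siRNA and 1.263 FPKM with control siRNA. Its plain ratio of 1.58 counts as 1.5-fold with a pseudocount of 0.1 but not with 1. Of 8 genes of end resection (median -0.01), RMI1 was at 0.770, the helicase BLM at 0.843, the nuclease DNA2 at 1.11 and RBBP8, also called CtIP, at 1.05 times. Of 13 checkpoint output genes (median 0.12), PKMYT1, an inhibitory kinase of CDK1, was at 1.39, the related kinase WEE1 at 0.825 and the phosphatase CDC25C at 1.19 times. Of 11 kinases of the ATM family and their assembly chaperones (median 0.07), the ATPase RUVBL1 was at 0.727, TTI2 at 0.800, TRRAP at 1.17 and RPAP3 at 1.12 times. Of 8 genes of proliferation and S phase (median -0.02), CCNE1 was at 0.786, PCNA at 1.11, TOP2A at 0.913 and CCNE2 at 1.07 times.

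**Figure D4:**
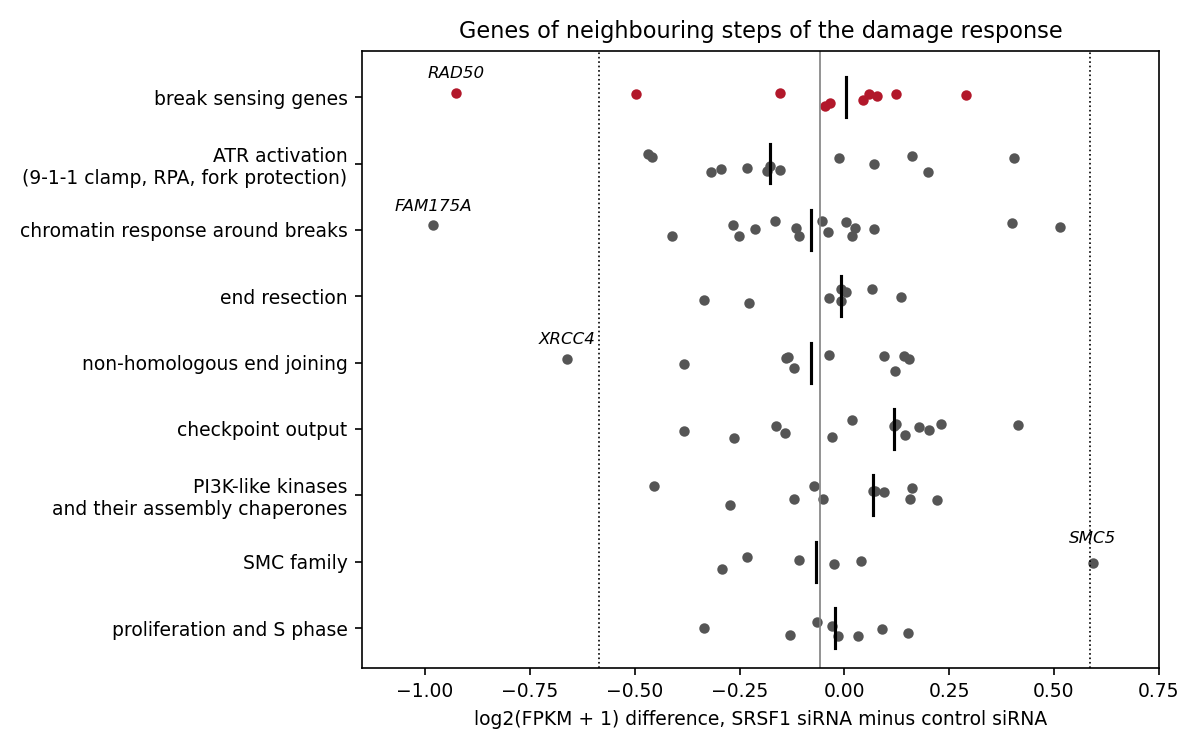
Log2(FPKM + 1) with SRSF1 siRNA minus that with control siRNA, for the 10 break sensing genes (red) and for the expressed genes of 8 lists of neighbouring steps (grey), each point a gene and each black bar a list median. The grey line is the median of all expressed rows at -0.06, and the dotted lines mark 1.5-fold, which of the genes shown only RAD50, FAM175A, XRCC4 and SMC5 pass.

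The genes lie on several chromosomes, with positions from GENCODE 29 on GRCh38, which differ from those of the hg19 build of the files. RAD50 is on chromosome 5 from 132556019 to 132646344 (plus strand), MRE11A on chromosome 11 from 94415578 to 94493908 (minus strand) and ATRIP on chromosome 3 from 48446710 to 48467645 (plus strand). Exons of another annotated gene overlap 9 of the 10, all but NBN, and whether reads were counted by strand is not given in the sources used here. TREX1, on the same strand, shares 1515 exon bases with ATRIP. It was listed at 0.0789 FPKM with SRSF1 siRNA and 0.224 FPKM with control siRNA. How reads in shared exons were assigned is not given either, so these values do not show how much TREX1 transcript was present. A gene annotated as protein-coding, AC116366.3, shares 7784 exon bases with RAD50 on the same strand, and the antisense gene TH2LCRR shares 243. TUBGCP4 shares 3732 exon bases with TP53BP1 on the opposite strand, at 13.7 FPKM with SRSF1 siRNA and 15.1 FPKM with control siRNA. C11orf65 shares 114 exon bases with ATM on the opposite strand, at 0.252 FPKM with SRSF1 siRNA and 1.18 FPKM with control siRNA. NPAT shares 143 with ATM, also on the opposite strand. Whether these overlaps bear on the values of the members was not tested. CHEK2 has partial copies elsewhere in the genome that can share its reads, so its value is uncertain.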

How the data were processed

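RNA from RKO cells was sequenced in 2 libraries, 1 with SRSF1 siRNA and 1 with control siRNA, grouped by the sample labels. Reads were processed with Bowtie 0.12.2 and hg19, per the submitters' processing notes. The sources used here do not give the counting tool, annotation, strand setting or filters. The gene table holds FPKM values calculated by the authors. The authors also deposited a mapping summary of read numbers per library.

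The table has 40205 rows, of which 11274 had a mean FPKM of at least 1. With library totals of 23852089 (SRSF1 siRNA) and 23138519 (control siRNA) fragments, counts and gene length came out whole for 99.963% of the 16235 genes detected in both (relative tolerance 2e-12). The counts are the smallest that fit. The ratio of a gene between the libraries carries an exact Clopper-Pearson 95% interval conditional on the summed count. For the change in a ratio between partner genes, the 95% interval is a normal approximation on the log scale, from the reciprocals of the counts. It is rough for ATRIP, with 6 and 9 fragments. The recovery was checked on simulated libraries built with the recovered lengths and totals. Such a check cannot tell for which genes the true counts are a multiple of the smallest. The work used Python 3.11.15, scipy 1.17.1 and statsmodels 0.14.6.

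The members and lists were chosen with earlier results of these data known. Named genes were SRSF1, every member, the 4 genes of each list with the largest absolute difference, and the 3 mRNA rows most like each member past 1.5-fold. A gene that this rule names is not reported here. Alternatives were another pseudocount, recovered counts, other filters, 3 scalings and removal of a lowess trend (span 0.3) on transcript length. Transcripts and positions came from GENCODE 29 and promoters from RefSeq.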

Additional observations from a re-analysis of the deposited data

How the results depend on the processing

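Of 8 alternative settings, none turned the direction of RAD50, whose difference lay between -0.98 and -0.87. The number of members at least 1.5-fold lower was 2 in place of 1 with a pseudocount of 0.1 and from recovered counts with no pseudocount, where ATRIP passed (-0.61 and -0.63). No member was at least 1.5-fold higher under any alternative. The differences of MRE11A and ATR, -0.03 and -0.05 as reported, were 0.02 and 0.01 with the median difference set to 0, and 0.03 and 0.02 after quantile normalization. Expressed rows at least 1.5-fold lower, 485 as reported, were 806 with a pseudocount of 0.1, 860 from recovered counts, 267 with a mean FPKM of at least 5, 802 after both columns were rescaled to 1 sum and 269 with the length trend removed. Those at least 1.5-fold higher, 138 as reported, were 237, 256, 69 and 259 under the first 4 of these, 247 with no filter and 217 after quantile normalization. The number of rows tested differed too. It was 7646 with a mean FPKM of at least 5, 12500 after rescaling, 10762 with the length trend removed and 18648 with no filter. ATRIP was left out with a mean FPKM of at least 5. No paired analysis was possible because each group had 1 library, and for the same reason no library could be left out. Counting error limits ATRIP most, since its multiple is unknown.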

Other observations

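Genes next to the 10 members on the chromosome were read for comparison, a view chosen after the members' values were seen. These were the 20 nearest expressed protein-coding genes, on either side of each member, that did not overlap it. Their distances ran from 153 bases (SHISA5, by ATRIP) to 767609 bases (PITPNB, by CHEK2). Overlapping expressed genes such as NPAT, HSCB and TUBGCP4 are thus not among them. None of the 20 reached 1.5-fold, and their differences lay between -0.37 and 0.46 with a median of -0.08. On either side of RAD50, IRF1, an interferon regulatory factor, was at 2.48 FPKM with SRSF1 siRNA and 2.47 FPKM with control siRNA. KIF3A, a kinesin subunit of ciliary transport, was at 13.0 FPKM with SRSF1 siRNA and 11.7 FPKM with control siRNA. The highest of the 20 was XRN1, a cytoplasmic exonuclease beside ATR, at 9.80 FPKM with SRSF1 siRNA and 6.83 FPKM with control siRNA.

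Several members lie head to head with another gene, with starts within 1000 bases of each other. NPAT, a regulator of histone gene transcription whose start is 158 bases from that of ATM, was at 6.62 FPKM with SRSF1 siRNA and 6.11 FPKM with control siRNA, a difference of 0.10 against -0.15 for ATM. ANKRD49, facing MRE11A, was at 5.57 FPKM with SRSF1 siRNA and 6.10 FPKM with control siRNA. HSCB, a co-chaperone of iron-sulfur cluster assembly that faces CHEK2, was at 9.20 FPKM with SRSF1 siRNA and 8.10 FPKM with control siRNA, a difference of 0.16 beside 0.29 for CHEK2.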
